A study of Homo sapiens with 22 samples.

Results

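A set of 10 genes that mark simple and intestinal epithelium was followed through 3 deposited maps of a human colorectal adenocarcinoma line, DLD-1: the binding sites of the replication factor MTBP, the histone mark H3K4me2 and the zones where DNA replication starts early in S phase. These are 10 of the 19974 protein-coding genes on chromosomes 1 to 22 and X in RefSeq's table for GRCh38.p14. They were taken by name, as 4 keratins (KRT8, KRT18, KRT19 and KRT20), 2 genes of secretory cells (MUC2 and TFF3) and 4 genes of absorptive cells (GUCY2C, FABP1, LGALS4 and PHGR1). All 10 matched a symbol in the table, and each was examined over its RefSeq span with 20 kb added on each side, a window in which any peak or zone overlapping by at least 1 bp was counted.

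The 22 libraries form 8 groups, all made in DLD-1 cells with an MTBP-mAID allele, that is, with MTBP fused to an auxin-inducible degron. In CUT&RUN an antibody tethers a nuclease to its target and the DNA cut free there is sequenced. It used a FLAG antibody in MTBP-mAID/MTBP-WT-FLAG cells (full-length MTBP, called WT, 3 libraries), MTBP-mAID/MTBP-deltaC-FLAG cells (MTBP cut short at its C terminus, called deltaC, 3 libraries) and MTBP-mAID/MTBP-mAID cells (an untagged control, 3 libraries). In MTBP-mAID/MTBP-WT-FLAG cells it also used an antibody to H3K4me2 (2 libraries) or control IgG (2 libraries). EdU-seq, which captures DNA that has taken up the thymidine analogue EdU (10 µM for 3 hr), was done on WT cells arrested in G1, on WT cells released into S phase and on deltaC cells released into S phase (3 libraries each), with HU and aphidicolin present to hold replication near its starting points. Whether each line is a single clone, and whether the degron was triggered, is not given in the sources used here. Each list holds 1 value per peak or zone and no value per library, so no spread between replicates could be computed and no difference below carries a test. Sequencing depth cannot be read from them and is unknown. The untagged, IgG and G1 libraries were not analysed here, and whether peaks at these genes also appear in them was not tested.

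MTBP works together with Treslin to recruit CDC45 to the loaded replicative helicase, the step that turns a licensed site into an active origin, and the C-terminal part of MTBP is known to bind DNA. H3K4me2 marks active promoters and enhancers. KRT8 and KRT18 are the type II and type I keratins that pair into the intermediate filaments of simple epithelia, and they are expressed throughout the lining of the gut. KRT20 and the mucin and trefoil genes of goblet cells serve as markers of intestinal differentiation. So do the guanylyl cyclase, fatty acid binding and galectin genes of enterocytes.

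Around the 10 genes lay 26 different MTBP peaks, 40 H3K4me2 peaks and 6 initiation zones. An MTBP peak was present at 8 of the 10 genes, where 71.1% of all protein-coding genes had one under the same rule, and an H3K4me2 peak at 10 of 10 (86.2% of all genes). A zone was present at 6 of 10 (32.1% of all genes), and all 3 features at 5 of 10 (29.2% of all genes). LGALS4 is among these 5, though its MTBP and H3K4me2 peaks lay at the neighbouring gene ECH1, outside its zones. The keratins held 21 of the 26 MTBP peaks, the secretory genes 3 and the absorptive genes 2. FABP1 and PHGR1 had no MTBP peak. Of the 4 keratins, 4 had MTBP and 3 had a zone. Of the 6 secretory and absorptive genes, 4 had MTBP and 3 had a zone. Genes that share a locus share peaks, and KRT8 and KRT18 have 5 MTBP peaks, 2 H3K4me2 peaks and their zone in common.

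**Figure D1:**
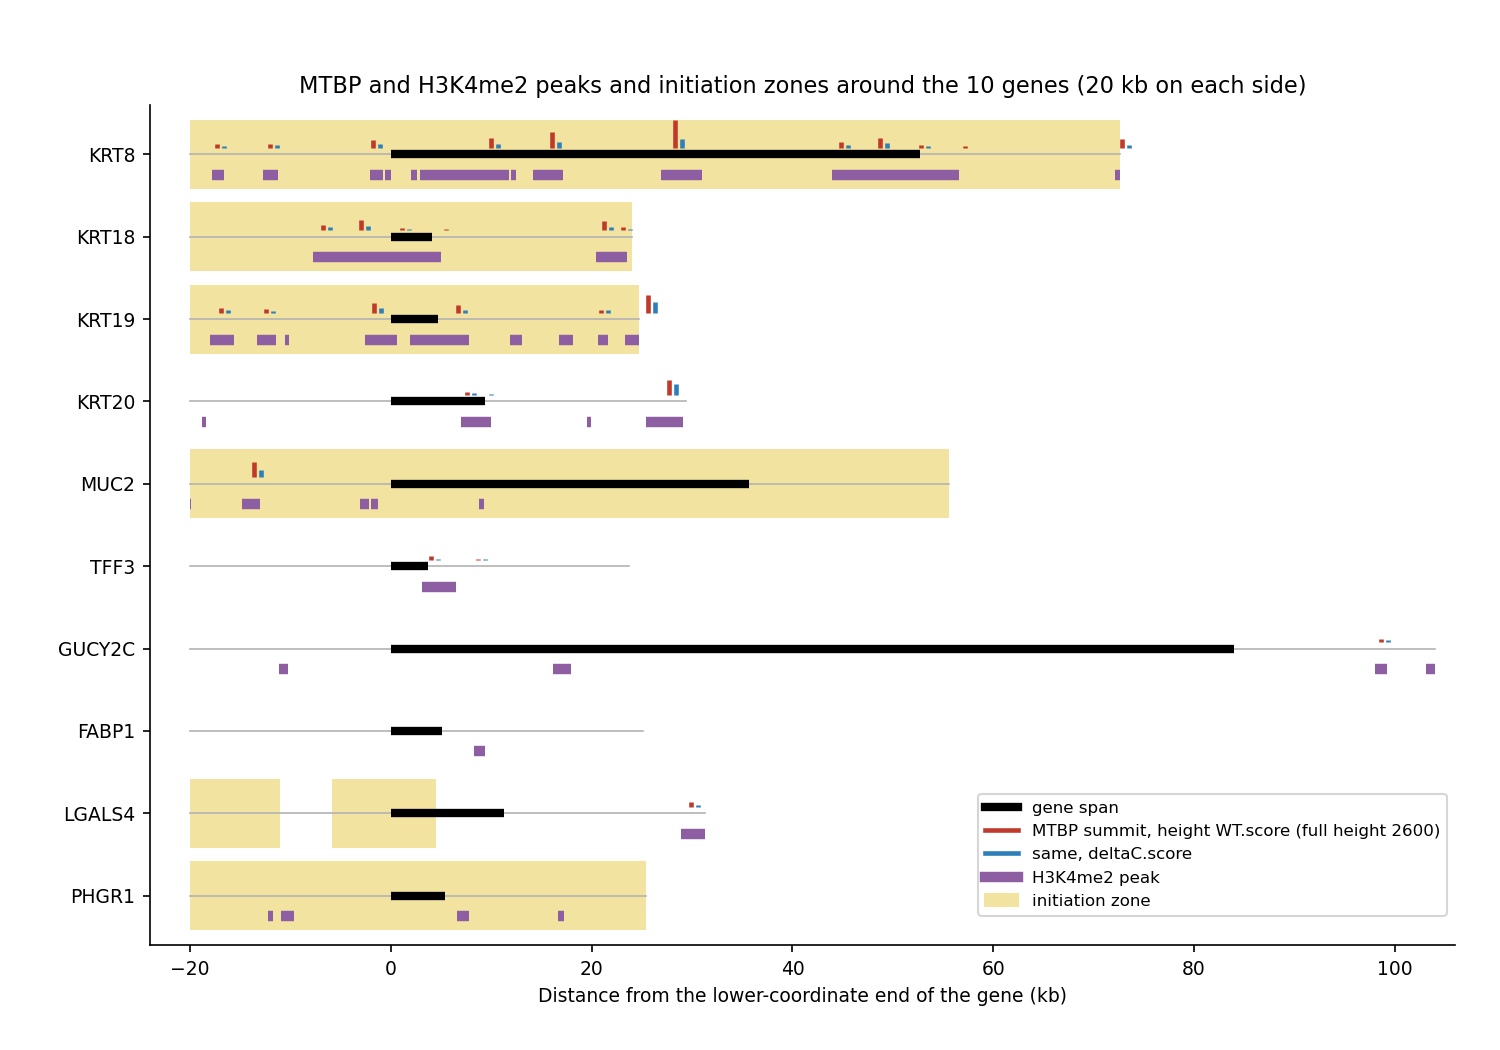
Map of the windows of the 10 genes, in kb from the lower-coordinate end of each gene span (black). Red bars stand at MTBP summits with the height of the WT signal and blue bars, drawn just to the right, give the deltaC signal of the same peak, with purple bars for H3K4me2 peaks and yellow for initiation zones. KRT8, KRT18 and KRT19 have MTBP peaks on both sides of the gene or within it and lie inside zones, whereas PHGR1 lies inside a zone with no MTBP peak and KRT20 has 3 MTBP peaks and no zone.

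The windows differ in length, from 43.7 kb at TFF3 to 124 kb at GUCY2C, so peaks were also counted per 10 kb. MTBP peaks per 10 kb were 1.36 at KRT18, 1.34 at KRT19 and 1.19 at KRT8, and the median over all protein-coding genes was 0.169. Only 0.396%, 0.416% and 0.761% of all genes, in that order, were as dense or denser. KRT20 had 0.608 per 10 kb (8.86% of genes as dense) and TFF3 0.457 (15.3%). LGALS4 with 0.195, MUC2 with 0.132 and GUCY2C with 0.0807 lay near or below the median. Density did not simply follow length: KRT8, with a span of 52.7 kb, was denser than the much shorter KRT20 and TFF3.

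RefSeq start sites and the 250 bases before them were available for 5 of the genes. They are printed because MTBP and H3K4me2 peaks covered the start site used here for KRT8 and KRT20 but not that of MUC2, FABP1 or LGALS4. The KRT8 site (52926469) lies inside the gene span. The authors used a second KRT8 start, under another MTBP peak (chr12:52904377-52908690), so the KRT8 stretch stands for a single start site of that gene. The MTBP peak over the KRT20 start is one that the list names for the deltaC line. Each stretch runs 5′ to 3′ on the gene's strand and ends at the base before the start site, in GRCh38.p14 coordinates. Capitals mark the matches to 6 short motifs.
KRT8, chr12:52926470-52926719, minus strand: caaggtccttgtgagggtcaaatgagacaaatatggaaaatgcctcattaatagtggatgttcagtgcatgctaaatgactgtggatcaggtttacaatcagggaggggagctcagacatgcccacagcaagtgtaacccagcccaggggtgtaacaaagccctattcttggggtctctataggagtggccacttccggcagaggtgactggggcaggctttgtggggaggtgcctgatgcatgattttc
KRT20, chr17:40885243-40885492, minus strand: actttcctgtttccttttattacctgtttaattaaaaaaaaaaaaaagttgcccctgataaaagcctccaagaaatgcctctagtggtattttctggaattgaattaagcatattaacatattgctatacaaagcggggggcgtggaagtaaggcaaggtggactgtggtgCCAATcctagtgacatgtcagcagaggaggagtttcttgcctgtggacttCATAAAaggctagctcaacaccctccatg
MUC2, chr11:1074624-1074873, plus strand: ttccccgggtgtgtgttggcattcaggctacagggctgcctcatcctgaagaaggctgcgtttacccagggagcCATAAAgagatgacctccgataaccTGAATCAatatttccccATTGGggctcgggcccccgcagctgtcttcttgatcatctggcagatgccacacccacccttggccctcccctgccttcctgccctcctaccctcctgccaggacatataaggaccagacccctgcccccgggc
FABP1, chr2:88128063-88128312, minus strand: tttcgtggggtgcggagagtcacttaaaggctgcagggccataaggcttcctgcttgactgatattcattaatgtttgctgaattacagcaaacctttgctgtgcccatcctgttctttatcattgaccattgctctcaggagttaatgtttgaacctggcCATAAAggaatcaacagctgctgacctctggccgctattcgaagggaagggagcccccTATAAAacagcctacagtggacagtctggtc
LGALS4, chr19:38812946-38813195, minus strand: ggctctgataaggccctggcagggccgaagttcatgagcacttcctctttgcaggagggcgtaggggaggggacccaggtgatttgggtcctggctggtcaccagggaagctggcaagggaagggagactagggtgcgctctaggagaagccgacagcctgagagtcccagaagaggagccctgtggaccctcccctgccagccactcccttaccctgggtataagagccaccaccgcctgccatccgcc

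The KRT8 stretch lay wholly (250 of 250 bases) under both an MTBP peak and an H3K4me2 peak. At KRT20, 128 of the 250 bases were under an MTBP peak and all 250 under an H3K4me2 peak. That MTBP peak is named for the deltaC line, and its signal in the WT line was 25.1, against 2556 for the peak over the KRT8 start site used here. The MUC2 stretch had 0 bases under either, with the nearest MTBP peak 12782 bp and the nearest H3K4me2 peak 1003 bp away. At FABP1 those distances were 71906 and 2932 bp, and at LGALS4 17858 and 17389 bp. GC content did not separate the covered from the uncovered stretches: it was 50.4% at KRT8 and 41.2% at KRT20, against 59.6% at MUC2, 48% at FABP1 and 63.2% at LGALS4 (median 58% over 35116 promoters). CpG dinucleotides numbered 1 and 2 in the covered stretches of KRT8 and KRT20, and 6, 4 and 6 at MUC2, FABP1 and LGALS4 (median 11 over all promoters).

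Each of 6 motifs was searched on both strands, and no match overlapped a match to another motif in these stretches. TTTATG, the core bound by the intestinal CDX homeodomain proteins, stood in 3 of the 5, always on the strand opposite to the gene: at KRT20 from base -29 to -24 counted from the start site, at MUC2 from -176 to -171 and at FABP1 from -89 to -84. Of all promoters, 9.64% held it. CCAAT stood at KRT20 from -79 to -75 and, on the opposite strand, at MUC2 from -134 to -130, and 32.0% of all promoters held it. The TATA box, searched as TATAAA, stood at FABP1 from -31 to -26 (10.7% of all promoters). For AP-1 a loose pattern was searched, TGANTCA with any base at N, which takes in more than the AP-1 motif itself. It stood at MUC2 from -151 to -145 as TGAATCA (6.57% of all promoters held the pattern). The GC box, searched as GGGCGG, was in 0 of the 5 and in 42.6% of all promoters. An HNF4A core, searched as CAAAGTCCA, was in 0 of the 5 and in 0.325% of all promoters. The KRT8 and LGALS4 stretches held none of the 6.

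KRT8 and KRT18 lie next to each other on chromosome 12 (KRT8 52897191-52949860, KRT18 52948855-52952906) and overlap at their ends. Their windows held 12 MTBP peaks, and only 0.886% of protein-coding genes had as many as the 11 of KRT8. The RefSeq start site used here for KRT8 is at 52926469, inside the gene span, which runs on to 52949860. The peak over this KRT8 start (chr12:52924795-52927913) had a WT.score, the authors' signal value for the WT line, of 2556 and a deltaC.score of 798. Its centre lay 115 bp from a start site by the authors' own distance, and its class was promoter. By WT.score it was number 10 of the 29848 MTBP peaks, but it was also 3118 bp wide. WT.score went up with peak width over all peaks (Spearman's rho 0.754, peaks as points), and per kb of width this peak ranked 576.

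The next signal in size at KRT8 also lay inside the gene span, in an intron at chr12:52912562-52914284. It had a WT.score of 1424, a deltaC.score of 580 and the class others. Per kb of width it ranked 548, close to the start-site peak. A second start site used by the authors lay under the widest MTBP peak of the locus (chr12:52904377-52908690, 4313 bp, promoter class, WT.score 952, deltaC.score 397, Peak.Score 170), whose centre was 85 bp from it. Below the lower-coordinate end of KRT8, where the gene ends, were an enhancer-class peak at chr12:52895125-52897153 (WT.score 736, deltaC.score 332), a promoter-class peak in a MIRc repeat near the pseudogene RPL7P41 at chr12:52884668-52885672 (358 and 228) and an enhancer-class peak at chr12:52879465-52880667 (328 and 148).

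Between that KRT8 start site and KRT18 stood enhancer-class peaks at chr12:52941215-52943086 (WT.score 505, deltaC.score 267) and chr12:52945098-52947348 (933 and 417). Both lie inside the KRT8 span, and the authors annotated them to intron 1 of a longer KRT8 transcript, NM_001256293. The authors' distance of the latter from the KRT18 start was -2648 bp, that is, upstream. In KRT18 itself there was 1 MTBP peak, at chr12:52949713-52950339 (WT.score 237, deltaC.score 126), which the authors annotated to the start of a non-coding KRT8 transcript. Beyond KRT18 were a weak peak in an AluY repeat (chr12:52954256-52954648, WT.score 130, deltaC.score 30.0) and enhancer-class peaks at chr12:52969337-52970906 (816 and 301) and chr12:52971485-52972451 (327 and 95.3). The deltaC.score was below the WT.score at all 12 peaks, from 23.1% of it at the AluY peak to 63.6% at the MIRc peak.

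H3K4me2 at the pair was broad. A peak of 12705 bp (chr12:52941110-52953814, fold enrichment 26.3) covered all of KRT18 and 3 of the MTBP peaks, and only 0.103% of H3K4me2 peaks were as wide. A peak of 8887 bp (chr12:52900110-52908996, fold 27.9) covered the lower part of KRT8 with its second start site, and the KRT8 start-site peak (chr12:52924103-52928164) had a fold of 26.4. The peak beyond KRT18 (chr12:52969317-52972415, fold 24.5) covered both outer MTBP peaks, and the other 7 peaks at KRT8 had folds from 4.96 to 18.7. In all, H3K4me2 covered 37.6% of the KRT8 window and 35.9% of that of KRT18. The pair lay in 1 initiation zone (chr12:52870329-53020360, 150 kb wide) with a zone score of 5685, number 14 of 2473 zones by score and 99 by width. Whole, that zone held 17 MTBP and 16 H3K4me2 peaks.

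KRT19, the smallest keratin and one of simple epithelia, lies in the type I keratin cluster on chromosome 17 (41523617-41528308). Its window had 6 MTBP peaks (5.14% of genes had as many) and 9 H3K4me2 peaks. No MTBP peak overlapped the gene, but a promoter-class peak stood on each side of it. The one above (chr17:41529584-41530948) was at -1958 bp from the KRT19 start by the authors' distance, with a WT.score of 657 and a deltaC.score of 189. The one below (chr17:41521316-41523086) ended 531 bp from the gene and had values of 849 and 379. For this lower peak the authors' distance of -482 bp is to the start of a gene that the list leaves unnamed. The largest by WT.score was an enhancer-class peak at the end of the non-coding gene LINC00974 (chr17:41547476-41550976, WT.score 1603, deltaC.score 965), number 123 of all peaks by WT.score. It was 3500 bp wide, and per kb of width its WT.score (458, number 10071) was below those of the promoter-class peaks above and below the gene (482 and 480).

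The remaining KRT19 peaks were smaller. They were a promoter-class peak in a MER20 repeat 1067 bp from KRT13 (chr17:41506241-41507188, WT.score 429, deltaC.score 276), one of class others 2579 bp from KRT15 (chr17:41510980-41511849, 291 and 172) and an enhancer-class one near LINC00974 (chr17:41544384-41545085, 262 and 194). Of the H3K4me2 peaks, 6 of 9 overlapped MTBP, and the peak over its start side (chr17:41525518-41531397) was 5880 bp wide with a fold of 21.3. The peaks with MTBP had folds from 15.8 to 31.0, and the 3 without it 7.10, 11.1 and 19.2. H3K4me2 covered 41.8% of the window, the largest share among the 10 genes, and 0.0801% of all genes had as many H3K4me2 peaks per 10 kb. The whole gene was in a zone of 67.6 kb (chr17:41497646-41565221) with a score of 1176, number 689 of 2473, which held 6 MTBP and 11 H3K4me2 peaks.

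KRT20, the keratin of mature enterocytes and goblet cells, is on the same chromosome (40875889-40885242) and had MTBP without a zone. The nearest zone was 311 kb away. Its strongest peak by WT.score was an enhancer-class peak beyond its start side (chr17:40901839-40904837), with its summit 18331 bp from the gene, a WT.score of 1361 and a deltaC.score of 1015. Inside the gene, in an L2b repeat, was a promoter-class peak with values of 222 and 146 (chr17:40882960-40883776). At the start itself was another promoter-class peak that the list names for the deltaC line (chr17:40884935-40885370), with its centre 90 bp from the start site, a WT.score of 25.1 and a deltaC.score of 90.0. The WT.score there was among the lowest of all (number 29833 of 29848). H3K4me2 at the start was modest (chr17:40882911-40885892, fold 9.73) and stronger at the upstream enhancer (fold 25.9), which the KRT23 window also reaches. The remaining H3K4me2 peaks at KRT20, of folds 3.52 and 6.16, had no MTBP.

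MUC2, the gel-forming mucin of goblet cells, lies on chromosome 11 (1074874-1110508) in a cluster of mucin genes. MTBP was absent from its 35.6-kb span and start. The window's only MTBP peak was an enhancer-class peak ending 13032 bp before the start (chr11:1060288-1061842), with a WT.score of 1416, a deltaC.score of 700 and a Peak.Score of 743. It was number 255 by WT.score and 251 per kb of width, so its rank did not depend on its width. An H3K4me2 peak of fold 21.1 lay under it, while the H3K4me2 peaks nearest the MUC2 start had folds of 5.46 and 3.89 and the one inside the gene 6.998. A further H3K4me2 peak (fold 18.7) at the edge of the window lay on an MTBP peak just outside it (chr11:1052441-1054809, WT.score 423). The whole gene was in a zone of 142 kb (chr11:1024142-1166027) with a score of 1822, number 348. That zone held 4 MTBP peaks in all. The largest of them (chr11:1150549-1154576, WT.score 1768, deltaC.score 904) was assigned by the authors to MUC5AC, another gel-forming mucin gene. A peak outside the window at the other end of the zone (chr11:1050712-1051704) had a WT.score of 199 and a deltaC.score of 6.78, which is 3.40% of it.

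TFF3, which encodes a trefoil peptide that goblet cells secrete with mucin, lies on chromosome 21 (42311667-42315409). It had MTBP at its start and no zone within 131 kb. The promoter-class peak (chr21:42315215-42315896) had its centre 96 bp from the TFF3 start by the authors' distance, with a WT.score of 310 and a deltaC.score of 50.3. A second, weak peak upstream, at -4654 bp (chr21:42320140-42320471, class others) was named for the deltaC line and had a WT.score of 37.2 and a deltaC.score of 68.0. The only H3K4me2 peak of the window (chr21:42314731-42318175, 3445 bp, fold 20.2) covered the start-site peak, and the upstream peak had none.

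Of the absorptive genes, GUCY2C, the receptor for the gut hormones guanylin and uroguanylin, has the longest span (84.0 kb on chromosome 12, 14612632-14696599). Its single MTBP peak lay upstream, at -14712 bp from the start (chr12:14711088-14711535, class others, WT.score 238, deltaC.score 139), under an H3K4me2 peak of fold 15.4. A stronger H3K4me2 peak farther upstream (chr12:14715701-14717146, fold 21.2) had no MTBP, nor did 2 weaker ones of folds 8.41, inside the gene, and 8.65, beyond its end. No H3K4me2 peak lay at either end of GUCY2C, and the nearest zone was 1403 kb away.

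FABP1, the fatty acid carrier of liver and enterocytes, lies on chromosome 2 (88122982-88128062) and had the least of the 10 genes. The nearest MTBP peak was 66.8 kb from the gene and the nearest zone 2111 kb. Its window held 1 H3K4me2 peak, of fold 10.5, before the start site (chr2:88131244-88132320).

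LGALS4, a galectin of the gut epithelium that binds sugars on glycoproteins, lies on chromosome 19 (38801674-38812945). The 1 MTBP peak and the 1 H3K4me2 peak of its window both lay at the start of the neighbouring gene ECH1, which encodes an enzyme of fatty acid oxidation. The MTBP peak (chr19:38831053-38832431, WT.score 429, deltaC.score 195) had its centre 52 bp from the ECH1 start, and the H3K4me2 fold there was 21.96. A small zone (chr19:38795787-38806123, 10.3 kb) covered 39.5% of LGALS4 at its lower-coordinate end. Its score of 97.3 was number 2349 of 2473. A second zone in the window (chr19:38756080-38790599, score 286, number 1818) did not reach the gene. Both zones held 0 MTBP and 0 H3K4me2 peaks.

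PHGR1, which encodes a short protein rich in proline, histidine and glycine and is expressed in gut epithelium, lies on chromosome 15 (40351033-40356434). It was wholly inside a zone of 147 kb (chr15:40236643-40383776) whose score of 3014 was number 100 of 2473, and no MTBP peak was in its window. Of all protein-coding genes, 2.83% had a zone and no MTBP peak under the 20-kb rule, and PHGR1 was the 1 gene of the 10 that did. The zone held 4 MTBP peaks elsewhere, with WT.scores from 129 to 339, and 16 H3K4me2 peaks, whereas the zone of KRT8 and KRT18, of similar width, held 17 and 16. MTBP peaks per 100 kb were 2.72 in the PHGR1 zone, 2.82 in the MUC2 zone, 8.88 in the KRT19 zone and 11.3 in the KRT8 and KRT18 zone. The nearest MTBP peak to PHGR1 (chr15:40405119-40406245) was 48.7 kb away and outside the zone. An H3K4me2 peak of fold 24.0 without MTBP had its summit 165 bp from one end of DISP2, the gene next to PHGR1 (chr15:40357576-40358788). The other 3 H3K4me2 peaks of the window had folds of 7.13, 7.37 and 8.20, also without MTBP.

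**Figure D2:**
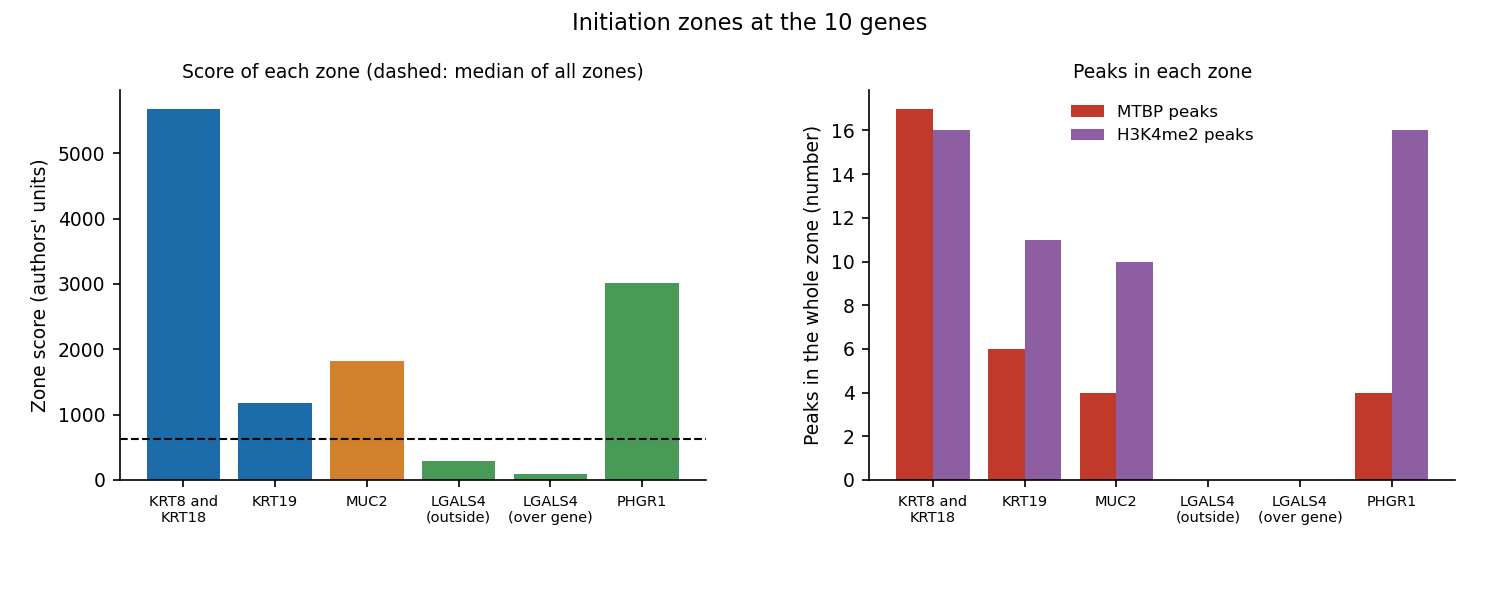
Left, the authors' score of each initiation zone in the windows, coloured by gene group (blue keratin, orange secretory, green absorptive), with the median of all zones, 628, as a dashed line. Right, the number of MTBP and H3K4me2 peaks in the whole of each zone: the KRT8 and KRT18 zone and the PHGR1 zone hold 16 H3K4me2 peaks each but 17 and 4 MTBP peaks.

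The MTBP signal of the 2 lines was then compared at the 26 peaks, as log2((deltaC.score + 1)/(WT.score + 1)). The deltaC.score was lower than the WT.score at 24 peaks and higher at 2. The median log2 ratio was -1.07 over the 26 peaks and -0.93 over all 29848, which corresponds to median deltaC.scores of 47.5% and 52.3% of the WT.score. How the authors scaled the lines to each other is not given in the sources used here, so a level common to all peaks cannot be told apart from scaling. A log2 ratio of -1 or below, which is a deltaC.score at or below about 0.5 of the WT.score, was found at 14 of the 26 peaks (53.8%), where 44.9% of all peaks met this rule.

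Among the groups, the median log2 ratio was -1.14 for the 21 keratin peaks, -1.01 for the 3 secretory peaks and -0.95 for the 2 absorptive peaks, with a log2 ratio of -1 or below at 11, 2 and 1 of them. The keratin peaks themselves ran from -2.08 to 1.80, a range that holds those medians. Within the keratins the medians were -1.16 at KRT8, -1.30 at KRT18, -0.75 at KRT19 and -0.42 at KRT20. The keratin peaks with the lowest deltaC.score relative to WT were the AluY peak beyond KRT18 (23.1%), the peak upstream of KRT19 (28.7%), the outermost peak beyond KRT18 (29.1%) and the KRT8 start-site peak (31.2%). The highest below equality were the KRT20 enhancer peak (74.5%) and the smaller peak near LINC00974 (74.0%).

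TFF3 and KRT20 held the extremes. The TFF3 start-site peak had the lowest ratio of the 26, with a deltaC.score of 16.2% of the WT.score (log2 ratio -2.60, number 892 from the bottom of 29848). The KRT20 start-site peak had the highest, 3.59 times the WT.score (log2 ratio 1.80, number 34 from the top), and the peak upstream of TFF3 the next, 1.83 times (log2 ratio 0.85). These 2 peaks were the only ones of the 26 with a deltaC.score above the WT.score, against 4.52% of all peaks, and KRT20 the only one at a log2 ratio of 1 or above, against 0.419% of all peaks. They are also the 2 of the 26 that the list names for the deltaC line (2.94% of all peaks) and the 2 with the lowest WT.scores, 25.1 and 37.2, so both ratios rest on a small signal.

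**Figure D3:**
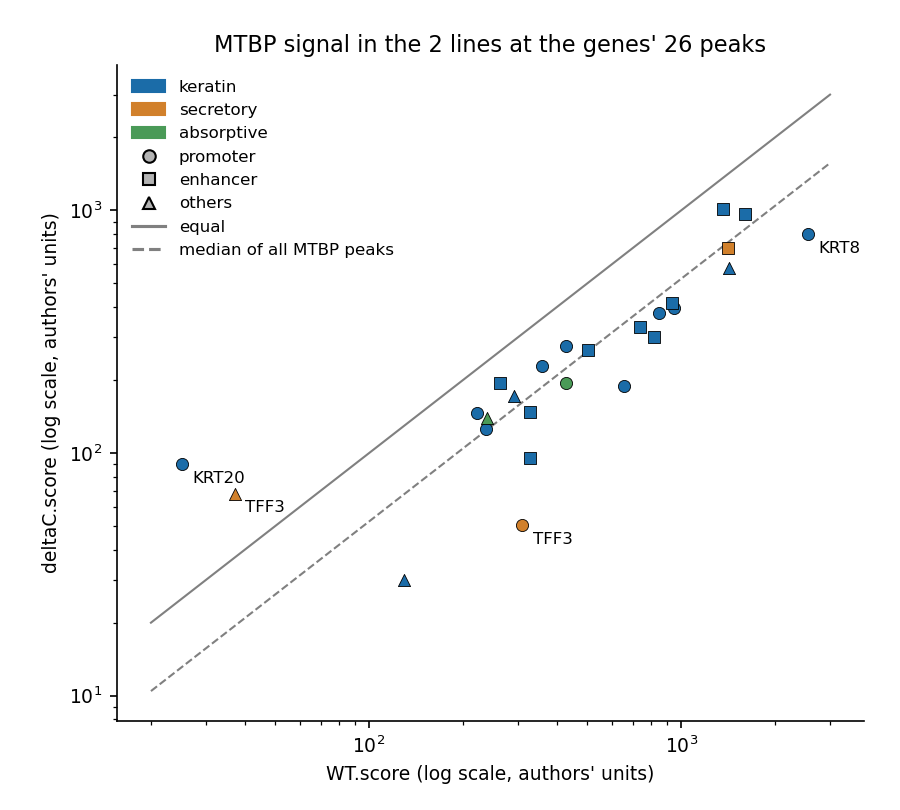
The deltaC signal of each of the 26 MTBP peaks against its WT signal, both on log axes in the authors' units, with colour for the gene group and shape for the authors' location class. The solid line marks equal signal and the dashed line the median ratio of all MTBP peaks: 24 peaks lie below the solid line, and the start-site peak of KRT20 and the upstream peak of TFF3 lie above it.

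By the authors' location classes, 11 of the 26 peaks were at promoters, 10 at enhancers or super-enhancers and 5 elsewhere, or 42.3%, 38.5% and 19.2%, against 34.7%, 17.6% and 47.7% of all peaks. Of the 10 enhancer-class peaks, 9 belonged to keratin windows and the other to MUC2. Their median WT.score was 776, where the median over all enhancer-class peaks was 420. These medians are not scaled for peak width, with which WT.score goes up. Per kb of width, the 10 peaks ranked from number 251 (at MUC2) to number 25630 of 29848. Promoter-class peaks at the 10 genes had a median of 429 (393 over all). Nearly all the genes' peaks lay on H3K4me2, at 24 of 26, against 98.9% of all MTBP peaks, the exceptions being the AluY peak beyond KRT18 and the peak upstream of TFF3. In a zone were 19 of the 26, 18 of them at KRT8, KRT18 and KRT19 and 1 at MUC2, and 23% of all MTBP peaks were in zones.

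Seen from H3K4me2, 22 of the 40 peaks around the genes overlapped MTBP (43.6% of all H3K4me2 peaks), with 17 of 24 at the keratins, 3 of 6 at the secretory genes and 2 of 10 at the absorptive genes. In zones lay 29 of the 40 (17.6% of all H3K4me2 peaks). Those with MTBP had a median fold of 20.6 and a median width of 2718 bp, and the 18 without it 7.25 and 752 bp. Over all H3K4me2 peaks these medians were 23.002 and 2189 bp with MTBP and 9.35 and 973 bp without. Strong H3K4me2 without MTBP was seen at DISP2 beside PHGR1 (fold 24.0), upstream of GUCY2C (21.2) and beyond KRT19 (19.2). The weakest H3K4me2 peaks with MTBP were those of fold 5.46 and 8.04 below KRT8 and that of fold 9.73 at the KRT20 start.

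**Figure D4:**
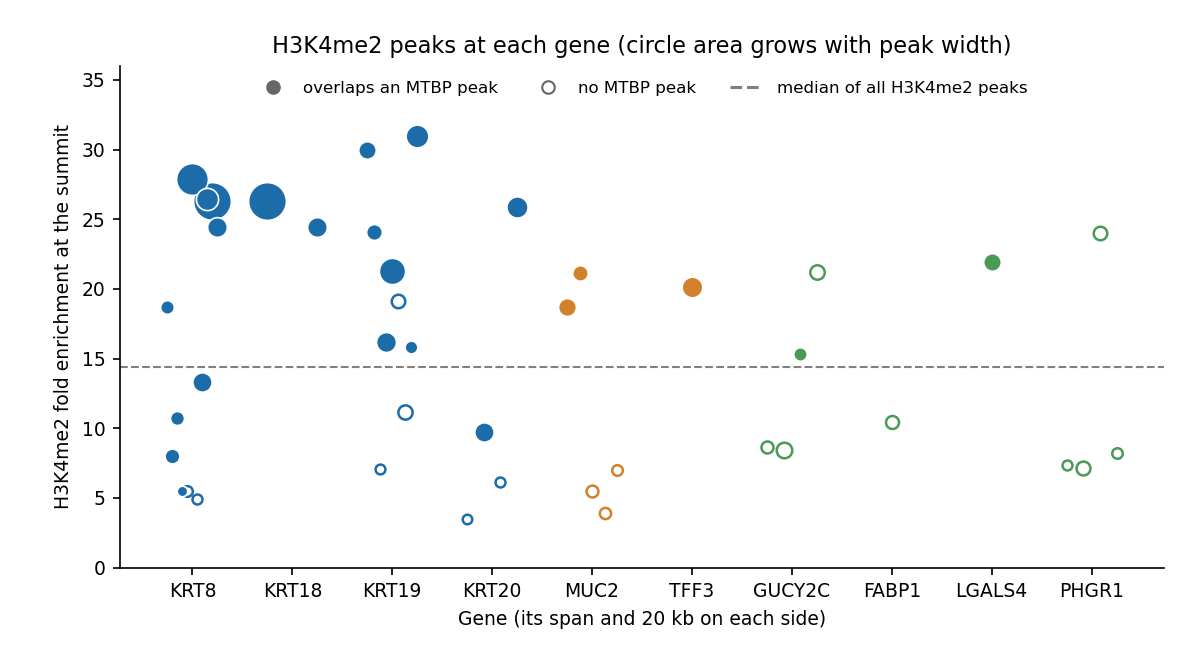
Fold enrichment of each H3K4me2 peak by gene, filled where the peak overlaps an MTBP peak and open where it does not, with circle area growing with peak width and the median of all H3K4me2 peaks, 14.4, as a dashed line. Peaks shared by KRT8 and KRT18 are drawn at both; the filled circles are mostly the higher and wider ones, and the open circles at PHGR1, GUCY2C and KRT19 above the line are strong H3K4me2 peaks without MTBP.

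Other genes of the same 3 kinds were counted under the same rule. Of 22 other keratins, 18 had MTBP (81.8%, against 71.1% of all protein-coding genes), 19 had H3K4me2 (86.4%, against 86.2%) and 9 had a zone (40.9%, against 32.1%). These shares lie near those of all genes. Of the 22 genes, 5 (KRT9, KRT12, KRT13, KRT15 and KRT23) share an MTBP peak with KRT19 or KRT20. The 9 with a zone include KRT9, KRT13 and KRT15, and KRT14, which had no MTBP, all reached by the zone of KRT19. KRT80, KRT7, KRT81 and KRT86 lay within reach of a zone on chromosome 12 with a score of 2919, and KRT80 had 7 MTBP peaks with a highest WT.score of 1672. KRT5, a keratin of basal cells, had 4 MTBP peaks and a zone, and KRT16, KRT17 and KRT24 had none of the 3 features.

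A further 24 genes were listed as secretory, and whether each is confined to secretory cells was not tested. Of them, 20 had MTBP (83.3%, against 71.1% of all genes), 23 had H3K4me2 (95.8%, against 86.2%) and 10 had a zone (41.7%, against 32.1%). They include SPINK4 (highest WT.score 1092, zone score 1289), a protease inhibitor of goblet cells, and MUC6, which is reached by the same zone as MUC2. ATOH1, the transcription factor that sets the secretory fate, had 2 H3K4me2 peaks and neither MTBP nor a zone. Of 26 other absorptive genes, 20 had MTBP (76.9%, against 71.1%), 23 had H3K4me2 (88.5%, against 86.2%) and 7 had a zone (26.9%, below the 32.1% of all genes). The genes named next are among the 7 with a zone, except SI. GUCA2A and GUCA2B, which encode the ligands of GUCY2C, share an MTBP peak (WT.score 444) and had a zone (score 149), unlike their receptor gene. LGALS3, a galectin gene related to LGALS4, had 5 MTBP peaks with a highest WT.score of 1158 and a zone score of 3685. The brush border enzyme gene SI had none of the 3 features.

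Among marker genes of cell types, 5 of 5 of colorectal epithelium (EPCAM, CDX2, VIL1, CDH17 and GPA33) had MTBP, H3K4me2 and a zone. That combination was found at 29.2% of all genes. The marker lists were chosen with earlier results of these data known, and other gut genes differed. All 3 features were present at 5 of the 10 genes followed here, with LGALS4 and the adjoining KRT8 and KRT18 included. A zone was present at 10 of 24 other secretory and 7 of 26 other absorptive genes. The 3 features were present together at 1 of 5 hepatocyte, 1 of 5 neuronal, 1 of 5 blood, 2 of 5 muscle and 1 of 4 epidermal marker genes. The hepatocyte gene is APOC3, whose zone score of 1182 is also that of APOA1, a gene listed as absorptive. The epidermal gene is KRT5, also counted among the other keratins. LOR, listed as an epidermal marker, was not found under that symbol. MTBP alone was not limited to gut markers, being present at 4 of 5 blood and 3 of 5 neuronal marker genes. ALB, TTR, HBB, MYH7, FLG, IVL and SPRR1B had none of them.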

How the data were processed

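The study mapped MTBP and H3K4me2 by CUT&RUN and early replication by EdU-seq in DLD-1 cells. Coordinates are in hg38, and Bowtie2, HOMER, MACS2 and Trim Galore are named in the submitters' processing notes. Their versions and settings, the pooling of replicates and the EdU-seq libraries behind the zones: not given in the sources used here. The deposited MTBP list gives a score per peak and a signal value per line (WT.score and deltaC.score), both of unstated scale. The deposited zone list gives the average peak score of each zone. In the deposited H3K4me2 list, the authors' values per peak are a score, a fold enrichment ratio and a −log10 q-value. All these are the authors' own values and describe or rank peaks within a list.

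Peaks on Y were left out (10 MTBP, 116 H3K4me2). Windows were RefSeq GRCh38.p14 spans with 20 kb on each side, and overlap of 1 bp counted. The log2 ratio used a pseudocount of 1. MTBP and zone coordinates are as deposited, and H3K4me2 starts were moved to 1-based. Start sites came from RefSeq's promoter table (5 of 10 genes). Computing used Python 3.11.15 and pandas 2.3.3, with the overlap and ratio steps tested on simulated data. No test across samples was possible, since each line has 1 value per peak. The untagged, IgG and G1 EdU libraries were not analysed here. The members and lists were chosen with earlier results of these data known. All 10 members are named. Of other lists, up to 6 genes with MTBP and a zone were eligible by highest WT.score, with neighbours that share a peak. Other genes named for lacking features were chosen after their values were seen.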

Additional observations from a re-analysis of the deposited data

How the results depend on the processing

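Of 72 alternative values of 17 results, 47 stayed within a wide margin (1.5 times for counts, the SD of the 26 single log2 ratios, 0.857, for medians) and 25 did not. That margin for medians is loose and shows little about stability: it takes in a secretory median of -1.81 with scores of at least the list median, against -1.01. No paired analysis was possible because the lists hold no value per library, and for the same reason no library could be left out. The count of genes with a zone (6) was 5 or 6 under every flank, centre and score rule tried. With no flank it was 6 of 10, where 24.5% of all genes had a zone. Genes with MTBP went from 8 of 10 (71.1% of all genes) to 9 of 10 at 50 kb (80.8% of all genes). With no flank they were 4 of 10, below the 53.7% of all genes. With 5 kb they were 5, and the share of all genes was not computed there. KRT19 was the keratin without MTBP at 0 kb. Of the secretory and absorptive genes, 1 in place of 4 had MTBP at 0 and at 5 kb. H3K4me2 was present at 7 of the 10 genes with no flank, for which no share of all genes was computed. MTBP peaks went from 26 to 9 and 14 at those flanks and to 39 at 50 kb (keratins 8 and 12, the others 1 and 2, and 11 for the others at 50 kb), and to 15 with scores of at least the list median. H3K4me2 peaks went from 40 to 12, 18 and 67 at 0, 5 and 50 kb, and to 20 with folds of at least the list median. Centred on the median of all peaks, the median log2 ratio became -0.14 over all 26 peaks, -0.21 at keratins, -0.082 at secretory and -0.021 at absorptive genes, and peaks at a log2 ratio of -1 or below went from 14 to 2, where 7.64% of all peaks then met the rule. That count was 9 at 5 kb and 5 with no flank. The secretory median was -2.60 with no flank, where 1 peak is left, and the absorptive genes had no peak at 0 or 5 kb. With a pseudocount of 10 or 0.1 the median over the 26 peaks was -1.05 or -1.08, against -1.07. The flank settings by group and the width scaling were chosen after seeing the data.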

Other observations

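The zone of KRT8 and KRT18 runs on beyond KRT18 towards EIF4B, a translation initiation factor gene, and holds 4 MTBP peaks there outside the windows of the keratins. A promoter-class peak assigned to EIF4B (chr12:53005926-53007734) had a WT.score of 769 and a deltaC.score of 169, or 22.04% of it. An enhancer-class peak at chr12:52976151-52976740 had 231 and 24.3, or 10.6%. Enhancer-class peaks assigned to EIF4B at chr12:52980690-52981475 (326 and 118, or 36.1%) and chr12:52992865-52994222 (485 and 171, or 35.3%) were no lower than the KRT8 start-site peak (31.2%). The PHGR1 zone held MTBP peaks whose deltaC.score went from 16.1% of the WT.score (chr15:40289300-40290124) to 101% (chr15:40279478-40280332, assigned to ANKRD63). Over the 26 peaks of the 10 genes, WT.score and deltaC.score went together (Spearman's rho 0.93), as WT.score did with width (0.926), with peaks that share loci and libraries as points.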
